A study of Mus musculus with 36 samples.

Results

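Kidney tissue described as non-transformed was compared between mice that carry the ASPSCR1-TFE3 fusion and mice that do not. The samples were 4 non-transformed kidney libraries from 4 Sglt2-Cre; ASPSCR1-TFE3 LSL/+ mice (called fusion mice here) and 6 kidney libraries from 3 Sglt2-Cre mice (control mice), out of 36 libraries in the series. They were chosen by their labels: genotype, tissue and mouse. Both control libraries of a mouse were summed, so that the comparison was of 4 mice against 3 mice. Every mouse in the comparison carried the Sglt2-Cre transgene, and only the fusion mice carried the loxP-stop-loxP (LSL) fusion allele. Tissue of both groups carried the same tissue label, normal kidney, and the fusion group is called non-transformed only in the description of the study as a whole. All tissue was fixed in formalin and embedded in paraffin, and no age or treatment was given. Fusion mice are numbered 1, 3, 4 and 5, by the order of the kidney tumors of the same animals. The kidney tumor libraries, 11 from 6 mice, were used to judge how much tumor material a non-transformed kidney could hold. They entered the comparison itself only in an alternative fit.

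TFE3 belongs to the MiT/TFE family of transcription factors, which bind E-box motifs and drive genes of lysosome biogenesis and autophagy. The ASPSCR1-TFE3 fusion occurs in translocation renal cell carcinoma and in alveolar soft part sarcoma, and acts as an unrestrained form of the factor. Sglt2 (Slc5a2) encodes the glucose transporter of the early proximal tubule, so that a Cre driven by its promoter is active in a part of the nephron only. A whole kidney sample therefore mixes recombined cells with many that never expressed Cre. In such bulk tissue, fewer cells of a type and less RNA per cell cannot be told apart.

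Depth was high, with 80205573 to 121415057 counts per library in non-transformed kidneys and 106242404 to 120153158 in control kidneys. From 98.2% to 98.9% of counts fell in protein-coding genes across both groups. Kidney identity was checked with Lrp2 (megalin, of the proximal tubule) and Umod (uromodulin, of the thick ascending limb). Lrp2 lay between 5962 and 8170 normalised CPM (reads per gene scaled to equal library totals) and Umod between 1104 and 2101 CPM over the 7 mice, with the groups overlapping. Y-linked transcripts summed to 565 CPM in fusion mouse 1 and 460 CPM in fusion mouse 5, which were therefore taken as male, and to at most 2.49 CPM in every other mouse. As no control mouse was male, a difference carried by mice 1 and 5 cannot be told apart from one of sex. The mouse identifiers of control mouse 1 and of every fusion mouse begin with the same letter, and those of control mice 2 and 3 with another, whose meaning was not given.

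Of 21019 genes tested, 2 were called at a Benjamini-Hochberg adjusted p under 0.05 by the quasi-likelihood test of edgeR, which is 0.00952% of the genes. They were Gpnmb and Gm3608, and both were higher in non-transformed kidneys. At an unadjusted p under 0.05 there were 2462 genes (11.7%), 1135 higher (5.4%) and 1327 lower (6.31%). For 2364 genes (11.2%) every mouse of one group lay above every mouse of the other, with 1017 genes higher (4.84%) and 1347 lower (6.41%). The median log2 fold change over all genes tested was 0.03. The number of calls depended on the tool and on single mice. DESeq2, on the same summed counts, called 575 genes, and leaving out control mouse 1, control mouse 2 or control mouse 3 left 0 genes called by edgeR, with 3390, 1215 and 1365 genes at an unadjusted p under 0.05. Without fusion mouse 5 there were 10 calls, and without fusion mouse 4 there was 1. In the following, a call given without a tool or setting is that of edgeR in this comparison of 4 mice with 3. A gene is said to have risen or fallen only if it was called in that way, and the other genes are given by their values.

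Gpnmb encodes a transmembrane glycoprotein of lysosomes and melanosomes and is a known target of MiT/TFE factors (ENSMUSG00000029816.10, build GRCm38, chromosome 6, 49036546 to 49070929, plus strand). Its promoter is shown because it is the called gene nearest to the biology of the fusion. The 250 bases before the RefSeq start, at chr6:49036268-49036517 on the plus strand of GRCm38.p6, contain neither of the E-box words CACGTG and CATGTG on either strand. Among 32851 mouse promoters of the same length, 6.02% contain CACGTG and 12.3% contain CATGTG.
Gpnmb: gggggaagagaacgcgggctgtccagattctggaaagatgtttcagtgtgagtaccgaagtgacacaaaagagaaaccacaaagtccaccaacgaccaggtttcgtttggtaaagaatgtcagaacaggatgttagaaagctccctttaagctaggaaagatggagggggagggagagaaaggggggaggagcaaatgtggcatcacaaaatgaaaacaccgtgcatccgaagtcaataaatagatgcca

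Gpnmb was 2.35, 2.21 and 1.48 CPM in control mice 1, 2 and 3 and 106, 427, 358 and 122 CPM in fusion mice 1, 3, 4 and 5. Every fusion mouse lay far above every control, and the female mice 3 and 4 lay above the male mice 1 and 5. The means were 253 ± 163 CPM (SD, n = 4) and 2.02 ± 0.468 CPM (n = 3), a ratio of 126 (log2 fold change 6.97, SE 0.67, edgeR adjusted p 0.0483). Among female mice alone the log2 fold change was 7.59 (edgeR adjusted p 0.000341). The size of the difference hardly moved when a mouse was left out, from 6.59 to 7.23, while the edgeR adjusted p ranged from 0.0223 to 0.627 and passed 0.05 without fusion mouse 4 or without any 1 of the control mice. The call was also lost with the first or the second control library only, with robust quasi-likelihood and in a test against a 1.5-fold change (edgeR adjusted p 0.07, 0.0846, 0.153 and 0.0512).

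Gm3608 is annotated as a pseudogene (ENSMUSG00000067017.5, chromosome 1, 105455971 to 105458829, plus strand). It was 0.826, 0.718 and 0.65 CPM in control mice 1, 2 and 3 and 6.24, 5.82, 5.55 and 8.12 CPM in fusion mice 1, 3, 4 and 5. The spread within each group was small against the gap. The ratio of means was 8.79 and the log2 fold change 3.13 (SE 0.24, edgeR adjusted p 0.0143), and the call was lost without any 1 of the control mice, with edgeR adjusted p-values of 0.0525, 0.269 and 0.0868 without control mice 1, 2 and 3, and with kidney tumors in the fit (edgeR adjusted p 0.254). How the counting treated reads that a pseudogene shares with other genes is not given in the sources used here, so the level of Gm3608 is uncertain.

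Rps3a3 and Hk2 followed in order of p, and neither was called by edgeR in the comparison of 4 mice with 3. Other settings called both, among them DESeq2 (adjusted p 9.36e-22 and 4.19e-26) and limma-voom (adjusted p 0.00295 and 0.0328). Without a filter edgeR called both as well (adjusted p 0.0144 for each). Hk2 encodes hexokinase 2, a glycolytic enzyme scarce in normal proximal tubule. It was 1.33, 1.12 and 1.45 CPM in control mice and 18.2, 58.1, 47.7 and 16.7 CPM in fusion mice 1, 3, 4 and 5 (log2 fold change 4.76, SE 0.53, edgeR adjusted p 0.0806). As for Gpnmb, the female mice 3 and 4 were the highest, and among females alone the log2 fold change of 5.33 was called (edgeR adjusted p 0.000341). Rps3a3 is a processed pseudogene of the ribosomal protein gene Rps3a1. It was 13.3, 6.98 and 7.59 CPM in control mice and 157, 174, 147 and 59.2 CPM in fusion mice, with an edgeR adjusted p of 0.0806. The parent gene Rps3a1 was 1323, 860 and 837 CPM in control mice and 768, 758, 674 and 1222 CPM in fusion mice, so that it overlapped between the groups while its pseudogene did not. A second processed pseudogene, Rps3a2, was 4.00 to 7.59 CPM in control mice and 9.03 to 18.4 CPM in fusion mice (edgeR adjusted p 0.188). Reads shared among these near-identical copies make all of these levels uncertain.

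**Figure D1:**
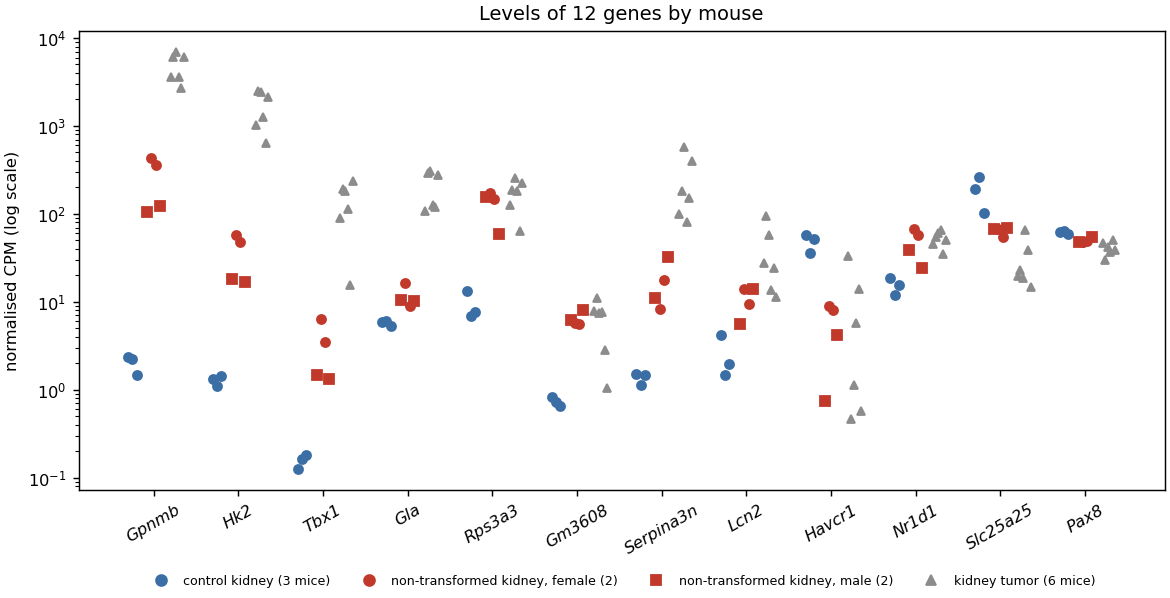
Normalised CPM on a log axis of 12 named genes in each control kidney (blue, 3 mice), each non-transformed kidney (red, circles for females and squares for males, 4 mice) and, for reference, the kidney tumors averaged per mouse (grey triangles, 6 mice). Gpnmb and Hk2 in non-transformed kidneys lie between controls and tumors, whereas Rps3a3 and Gm3608 lie near or within the range of the tumors.

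To judge how much tumor material the non-transformed kidneys could hold, genes of at least 5 CPM in every kidney tumor library and at most 0.5 CPM in every control library were taken as tumor genes. There were 10: Ugt2b35, Ivl, Tbx1, Slc7a11, Gpr143, Slc27a6, Elovl4, Diras2, Cdk15 and Shc2. The limit on the controls fixed their low control level, so that the comparison with controls is a description only. Their median level in the non-transformed kidney, as a percent of the level in the kidney tumors of the same mouse, was 3.03% in mouse 1, 3.17% in mouse 3, 2.89% in mouse 4 and 4.47% in mouse 5. In control kidneys the median was 0.367% of the mean tumor level. With stricter limits (10 CPM and 0.2 CPM), which only 2 genes met, the medians were 0.494%, 1.41%, 2.22% and 6.74%. Against the mean of all kidney tumors instead, the medians were 1.08%, 4.36%, 2.40% and 1.07%, with mice 3 and 4 above mice 1 and 5. The estimate for a single mouse thus depended on the genes and on the tumors it was set against.

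The levels of 3 tumor genes are given as examples, in each of which mice 3 and 4 lay above mice 1 and 5, while Diras2 was lowest in mouse 4, at 0.252 CPM. Tbx1, a T-box transcription factor, was 0.126, 0.164 and 0.181 CPM in control mice and 1.48, 6.38, 3.53 and 1.34 CPM in fusion mice 1, 3, 4 and 5, which was 1.65%, 3.51%, 3.08% and 8.5% of the tumor level. Ivl, which encodes involucrin, a protein of the cornified envelope, was at most 0.0808 CPM in control mice and 0.378, 7.72, 7.20 and 3.27 CPM in fusion mice. Ugt2b35, of the UDP-glucuronosyltransferase family whose members share sequence, was at most 0.108 CPM in control mice and 0.198, 3.75, 2.52 and 0.733 CPM in fusion mice. All 3 genes were highest in mouse 3 and did not overlap with the controls, and none was called in the comparison of 4 mice with 3 (edgeR adjusted p 0.173 for Tbx1, 0.173 for Ivl and 0.196 for Ugt2b35).

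Set on the same scale, the genes above fell into 2 ranges. Gpnmb was at 2.93%, 6.16%, 9.85% and 4.44% of the tumor level in mice 1, 3, 4 and 5, and Hk2 at 1.79%, 2.40%, 3.67% and 2.56%. Gla, which encodes the lysosomal alpha-galactosidase, was at 5.32% to 9.66%, and Rragb, which encodes a Rag GTPase that brings mTORC1 to the lysosome, at 4.66% to 8.69%. The highest percent among the tumor genes was 4.75%, 25.8%, 4.28% and 10.4% in mice 1, 3, 4 and 5, so that Gla in mouse 1 and Gpnmb, Gla and Rragb in mouse 4 lay above every tumor gene of that mouse. Gla and Rragb also have a level in control kidneys, with means of 5.75 and 6.40 CPM. In fusion mouse 4 they were 8.89 and 9.50 CPM, and in fusion mouse 1 they were 10.4 and 6.29 CPM. Much of their percents can therefore be the level of normal kidney, whereas the tumor genes were chosen to have almost none. The percents of Gla and Rragb are thus not directly comparable with those of the tumor genes. By contrast Rps3a3 was at 123%, 68.1%, 78.7% and 91.9% of the tumor level, Rps3a2 at 57.4% to 108%, and Gm3608 at 78.4%, 76.8%, 71.5% and 280%. For those pseudogenes the non-transformed kidney was within a factor of 2 of the tumor of the same mouse, except Gm3608 in mouse 5. The percents cannot tell a little tumor tissue in the section from a low level of the same transcripts in cells that express the fusion.

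**Figure D2:**
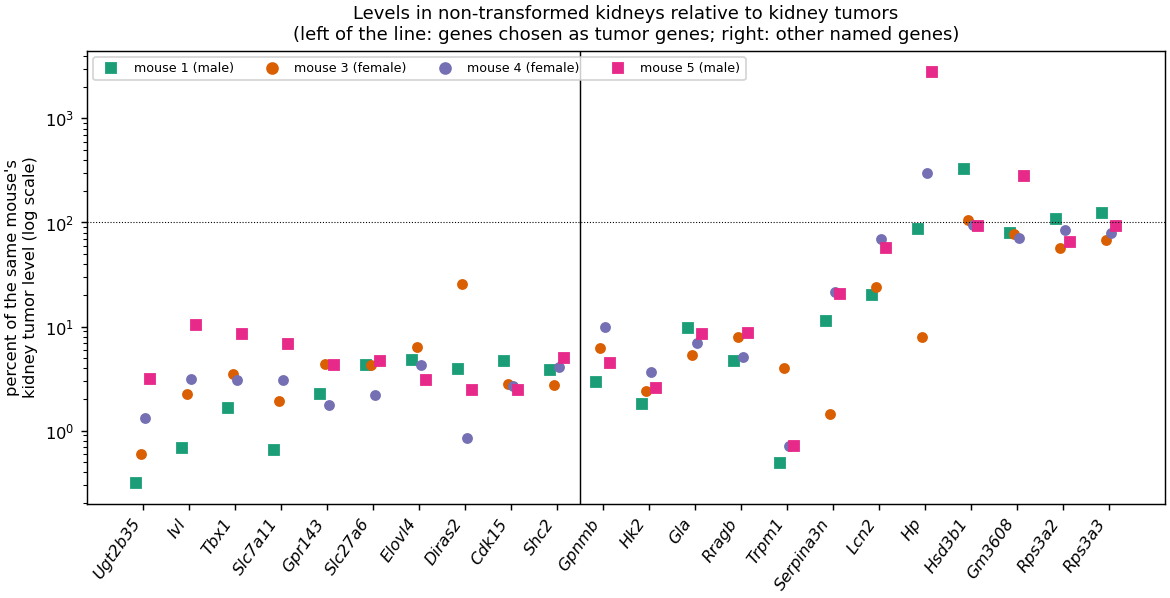
Level in each non-transformed kidney as a percent of the level in the kidney tumors of the same mouse, on a log axis, for the 10 tumor genes (left of the line) and 12 other named genes (right), with 1 point per mouse and a dotted line at 100. The tumor genes, Gpnmb, Hk2, Gla and Rragb lie mostly between 1 and 10 percent, and Gm3608, Rps3a2 and Rps3a3 lie between 57.4 and 280 percent.

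The factors themselves showed no call. Tfe3 was 17.1, 22.2 and 23.6 CPM in control mice and 19.3, 17.1, 23.1 and 18.2 CPM in fusion mice, and Aspscr1 was 30.1 to 37.6 CPM against 32.6 to 38.04 CPM, so both genes of the fusion overlapped between the groups. Whether transgene reads reached these 2 genes in the counting is not given. Of the other family members, Tfec was 28.4 to 32.7 CPM in control mice and 16.5 to 27.5 CPM in fusion mice without overlap (log2 fold change -0.51, edgeR adjusted p 0.39). Tfeb was 10.3 to 15.4 CPM and 9.84 to 10.4 CPM, and Mitf 31.2 to 41.6 CPM and 23.7 to 33.8 CPM, and neither was called. Slc5a2, whose promoter drives the Cre, was 197, 358 and 270 CPM in control mice and 448, 182, 277 and 210 CPM in fusion mice, and its direction turned among female mice.

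Lysosomal and autophagy genes known as targets of MiT/TFE factors were followed in a list of 28, all of them tested. Of these, 1 was called (Gpnmb), 8 were higher and 0 were lower at an unadjusted p under 0.05, against 5.4% and 6.31% of all genes, and the median log2 fold change was 0.07, against 0.03 over all genes. Ctsd, which encodes cathepsin D, was 94.6, 99.4 and 96.2 CPM in control mice and 157, 133, 114 and 135 CPM in fusion mice (log2 fold change 0.48, SE 0.12, edgeR adjusted p 0.216). Gla was 5.28 to 6.11 CPM in control mice and 8.89 to 16.4 CPM in fusion mice (edgeR adjusted p 0.201). Psap, which encodes prosaposin, an activator of lysosomal hydrolases, had a log2 fold change of 0.32. These genes did not overlap between the groups. Ctsl, which encodes cathepsin L, and Wipi1, of autophagosome formation, had log2 fold changes of 0.56 and 0.51 and overlapped. Flcn, the folliculin gene, which restrains MiT/TFE factors and is itself a target, was 13.1 to 16.3 CPM in control mice and 10.9 to 12.7 CPM in fusion mice. Apart from Gpnmb, the differences in this list were thus at most 2-fold, and 10 of the 28 genes had a log2 fold change below 0. Macrophages also express Gpnmb and Cd68, another lysosomal glycoprotein, and Cd68 was 6.00 to 7.34 CPM in control mice and 7.19, 21.3, 12.6 and 7.72 CPM in fusion mice. The part of macrophages in the lysosomal genes was not tested. Of 14 macrophage markers 2 were higher and 0 lower at an unadjusted p under 0.05, with summed levels of 273.5 to 318.99 CPM in control mice and 224 to 486 CPM in fusion mice.

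Melanocytic genes are markers of tumors driven by MiT/TFE factors and of melanocytes. Of 9 such genes 5 passed the filter on low counts, and 3 of these (Trpm1, Pmel and Dct) were higher at an unadjusted p under 0.05, against 5.4% of all genes. Pmel, which forms the melanosome matrix, was 0.355 to 0.557 CPM in control mice and 0.701, 8.14, 7.33 and 0.655 CPM in fusion mice 1, 3, 4 and 5. It was high in the female mice 3 and 4 and close to the controls in the males, and among females alone the log2 fold change of 4.06 was called (edgeR adjusted p 0.0157). Trpm1, which encodes a channel of melanocytes, was 0.125 to 0.454 CPM in control mice and 0.692, 7.65, 2.68 and 3.25 CPM in fusion mice. Dct, a melanin synthesis enzyme, was at most 0.108 CPM in control mice. It passed the filter through the fusion mice, so that its place among the 3 higher genes is a description only. Dct was at most 0.505 CPM in every mouse but fusion mouse 3, where it was 36.1 CPM, above the tumors of that mouse.

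V-ATPase subunits, which acidify lysosomes and also serve acid secretion in intercalated cells, were tested in full. Of 23 members 0 were higher and 2 were lower at an unadjusted p under 0.05, a share near the 6.31% of all genes, with a median log2 fold change of -0.07. One of these was Atp6v1b1, the subunit isoform of intercalated cells, with 107, 179 and 178 CPM in control mice and 106, 116, 93.4 and 90.5 CPM in fusion mice. Of 24 regulators of mTORC1, 1 was higher at that p (Rragb, log2 fold change 0.90) and 0 were lower, against 5.4% and 6.31% of all genes.

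Nephron markers were mostly at similar levels. Of 26 proximal tubule genes, 1 was higher and 1 was lower at an unadjusted p under 0.05, against 5.4% and 6.31% of all genes, and the median log2 fold change was 0.08. Slc27a2, a transporter and activator of fatty acids, was 2220, 1843 and 1817 CPM in control mice and 2441, 2439, 2286 and 3137 CPM in fusion mice (log2 fold change 0.39, edgeR adjusted p 0.382). Of 19 genes of the loop, distal nephron and collecting duct, 0 were higher and 6 were lower at that p, against 5.4% and 6.31% of all genes. Foxi1, the master regulator of intercalated cells, was 24.4, 28.7 and 28.6 CPM in control mice and 19.9, 16.8, 14.8 and 14.2 CPM in fusion mice (log2 fold change -0.73, SE 0.15, edgeR adjusted p 0.173). Trpm6, a magnesium channel of the distal convoluted tubule, and Hsd11b2, which protects the mineralocorticoid receptor, had log2 fold changes of -0.77 and -0.59. Hsd11b2 and Foxi1 did not overlap between the groups, and Trpm6 did. Control mouse 1 was the lowest control for all 3 genes. Of 10 endothelial genes 3 were lower at that p, among them Ehd3, of glomerular endothelium, with 31.2 to 37.0 CPM in control mice and 18.5 to 27.1 CPM in fusion mice. Of 10 renal lineage factors 1 was higher and 2 were lower at that p, and 8 had a log2 fold change below 0. Pax8 was 62.4, 63.8 and 59.6 CPM in control mice and 47.5, 47.6, 48.8 and 54.2 CPM in fusion mice without overlap, and Eya1 was 1.34 to 1.51 CPM and 1.78 to 5.80 CPM. Neither was called (edgeR adjusted p 0.257 and 0.252).

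Of 23 genes of tubular injury and repair 6 were higher and 1 was lower at an unadjusted p under 0.05, against 5.4% and 6.31% of all genes. None was called by edgeR in the comparison of 4 mice with 3, while DESeq2 called Lcn2 and Havcr1 among them (adjusted p 0.000163 and 0.00612). Above 0 lay 19 of the 23 log2 fold changes, with a median of 0.47. Lcn2, which encodes the secreted injury marker lipocalin 2, was 4.23, 1.48 and 1.95 CPM in control mice and 5.54, 13.9, 9.54 and 13.9 CPM in fusion mice (log2 fold change 2.07, SE 0.46, edgeR adjusted p 0.196). Cp, the ceruloplasmin gene, was 162 to 252 CPM in control mice and 297, 579, 564 and 270 CPM in fusion mice. Sox9, of repairing tubule cells, Tnfrsf12a, a receptor of injured tubules, and Krt20, a keratin, had log2 fold changes of 0.76, 0.95 and 1.26. Havcr1, which encodes the proximal tubule injury marker KIM-1, lay the other way. It was 57.2, 36.1 and 51.8 CPM in control mice and 0.755, 8.89, 8.17 and 4.18 CPM in fusion mice (log2 fold change -3.14, SE 0.67, edgeR adjusted p 0.186). Havcr1 was thus highest in the control kidneys, and among females alone its log2 fold change of -2.52 was called (edgeR adjusted p 0.048).

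Of 14 matrix genes 2 were higher and 1 was lower at an unadjusted p under 0.05, against 5.4% and 6.31% of all genes, and 12 had a log2 fold change above 0 (median 0.36). Timp1, an inhibitor of matrix proteases, was 0.377 to 0.389 CPM in control mice and 0.549, 1.83, 2.44 and 1.83 CPM in fusion mice. Col4a1, a basement membrane collagen, was 91.2 to 140 CPM and 152 to 202 CPM. Ccn2, a connective tissue growth factor, was 68.5, 88.7 and 104 CPM in control mice and 43.1, 45.0, 61.5 and 43.8 CPM in fusion mice. None of these 3 genes overlapped between the groups and none was called by edgeR. DESeq2 called Timp1 and Ccn2 (adjusted p 0.000454 and 0.00598) but not Col4a1. Of 20 proliferation genes 0 were higher and 0 were lower at an unadjusted p under 0.05, against 5.4% and 6.31% of all genes.

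**Figure D3:**
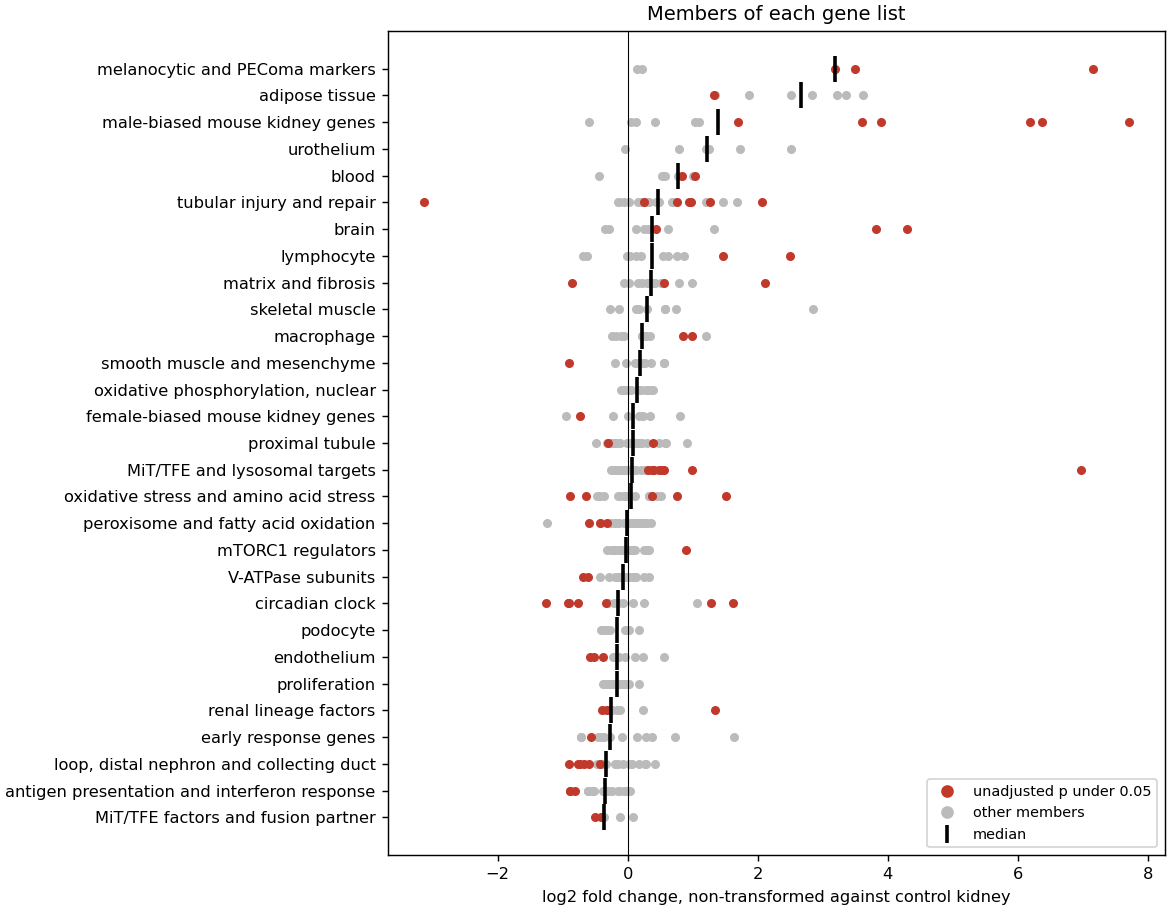
Log2 fold changes of non-transformed against control kidneys for the members of 29 gene lists, with members at an unadjusted p under 0.05 in red, other members in grey and the list median as a black bar. Gpnmb stands far to the right of the other lysosomal targets, and Havcr1 far to the left of the other injury genes.

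Genes of the circadian clock had values on both sides of the controls. The clock runs on Arntl and Clock, which drive Per, Cry and Nr1d1, and Nr1d1 in turn represses genes with AGGTCA elements such as Arntl and Nfil3. Of 15 clock genes 2 were higher and 5 were lower at an unadjusted p under 0.05, against 5.4% and 6.31% of all genes. None was called by edgeR, while DESeq2 called Nr1d1, Nfil3 and Cry1 among them (adjusted p 0.000379, 0.00365 and 0.00584). Nr1d1, the repressor, was 18.8, 12.1 and 15.4 CPM in control mice and 39.0, 67.5, 57.8 and 24.5 CPM in fusion mice (log2 fold change 1.61, SE 0.34, edgeR adjusted p 0.181). Nfil3, which encodes a repressor of D-box genes, was 28.3, 28.3 and 22.2 CPM in control mice and 11.5, 18.5, 13.3 and 12.5 CPM in fusion mice, a log2 fold change of -0.91 (edgeR adjusted p 0.173). Cry1, a repressor of the core loop, was 31.7, 39.0 and 34.1 CPM in control mice and 14.6, 19.7, 16.1 and 24.8 CPM in fusion mice. Each of these 3 genes, like Per2 (log2 fold change -0.76), separated the groups without overlap. Arntl was 31.7, 52.2 and 39.4 CPM in control mice and 18.7, 4.85, 11.4 and 34.3 CPM in fusion mice, lowest in mouse 3, where Nr1d1 was highest. Dbp, an output gene driven by Arntl and Clock, was 6.52 to 8.40 CPM in control mice and 11.7, 32.0, 23.8 and 6.06 CPM in fusion mice, and Hlf had a log2 fold change of -0.34. Clock transcripts vary over the day, and the hour at which tissue was taken was not given, so that hour and genotype cannot be told apart.

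The promoter of Nfil3 is shown because it holds an AGGTCA word, the site type that Nr1d1 binds. The 250 bases before the RefSeq start, at chr13:52981040-52981289 on the minus strand of GRCm38.p6, contain 1 match, read as its complement (capitals), whose first base lies 12 bases before the start. Of 32851 mouse promoters of that length 14% contain AGGTCA on either strand, and the match is a description of letters only.
Nfil3: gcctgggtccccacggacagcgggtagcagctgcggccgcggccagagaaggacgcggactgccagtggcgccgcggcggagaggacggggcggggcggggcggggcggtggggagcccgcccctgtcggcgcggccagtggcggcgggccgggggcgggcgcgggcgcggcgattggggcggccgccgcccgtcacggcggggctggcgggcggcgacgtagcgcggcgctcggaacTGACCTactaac

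**Figure D4:**
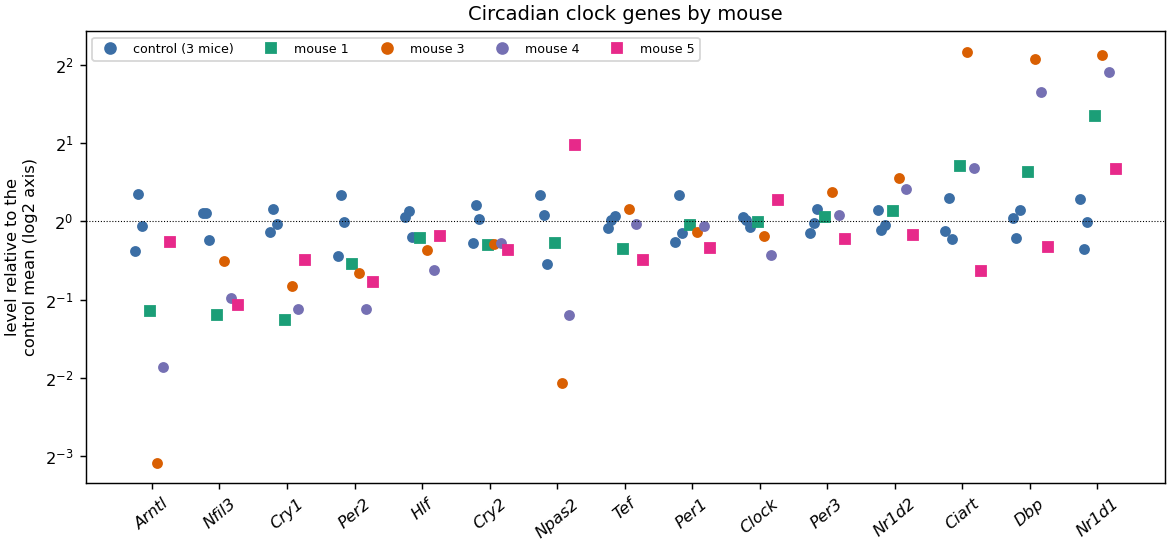
Levels of 15 circadian clock genes relative to the mean of the control mice, on a log2 axis, for 3 control mice (blue) and fusion mice 1, 3, 4 and 5. Nr1d1 lies above and Nfil3, Cry1 and Per2 lie below the controls in all 4 fusion mice, and Arntl and Dbp are farthest from the controls in mouse 3.

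The largest differences, in or out of these lists, were taken from 267 genes (125 higher and 142 lower) whose average log2 CPM was 2 or more, with an unadjusted p under 0.01 and groups that did not overlap. Among the 10 largest in the higher direction, next to Gpnmb, Hk2, Rps3a3 and Lcn2, were Serpina3n, Hp, Serpina1b, Ptgds, Cyp2j13 and Cyp2d9. Serpina3n, an acute phase protease inhibitor, was 1.53, 1.13 and 1.46 CPM in control mice and 11.1, 8.35, 17.6 and 32.1 CPM in fusion mice (log2 fold change 3.65, SE 0.49, edgeR adjusted p 0.173). Hp, the haptoglobin gene, was at most 0.817 CPM in control mice and 13.1, 0.860, 7.25 and 38.2 CPM in fusion mice, close to the controls in mouse 3 only. Serpina1b, an alpha-1-antitrypsin gene with near-identical copies, was 3.37 to 4.08 CPM in control mice and 14.4, 9.79, 8.93 and 75.6 CPM in fusion mice. Mouse 5 was the highest for these 3 genes. Ptgds, a prostaglandin synthase, was 1.46 to 3.62 CPM in control mice and 11.4, 50.6, 12.6 and 8.62 CPM in fusion mice, highest in mouse 3. None of Serpina3n, Hp, Serpina1b and Ptgds was called by edgeR in the comparison of 4 mice with 3. DESeq2 called all of them (adjusted p 1.34e-15, 0.002875, 0.0439 and 0.00394). Serpina3n was also called by edgeR without a filter (adjusted p 0.0463) and without fusion mouse 5 (adjusted p 0.0319).

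Cyp2j13 and Cyp2d9 are cytochrome P450 genes of families with close paralogs. Cyp2j13 was 1.07, 1.24 and 0.494 CPM in control mice and 80.6, 1.62, 1.67 and 189 CPM in fusion mice, high in the 2 males. Of 12 genes known to be higher in male mouse kidney, 6 were higher at an unadjusted p under 0.05, against 5.4% of all genes, and their sum was 3606 and 5960 CPM in the males and 1365 to 1795 CPM in the 5 females. Slco1a1, an organic anion transporter, was at most 0.350 CPM in every female and 10.8 and 206 CPM in the males. Slc7a13, an amino acid transporter of the late proximal tubule, was 1.82 to 4.02 CPM in females and 118 and 865 CPM in males, and its log2 fold change of 6.38 turned to -0.43 among females alone. Cyp2d9 was 27.9 to 43.9 CPM in control mice and 281, 110, 66.4 and 227 CPM in fusion mice, above the controls in the females too. Of 8 genes known to be higher in female kidney, 1 was lower at that p (6.31% of all genes), the prolactin receptor gene Prlr, with 172 to 231 CPM in control mice and 97.5, 152, 163 and 64.6 CPM in fusion mice. Xist, which females transcribe from the inactive X, was 35.1, 64.8 and 57.1 CPM in control mice and 15.9 and 14.6 CPM in the female fusion mice, and at most 0.105 CPM in the males.

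Among the 10 largest in the lower direction were Havcr1, both ribosomal RNAs of mitochondria, and nuclear non-coding RNAs. mt-Rnr2 was 443, 862 and 896 CPM in control mice and 210, 204, 327 and 104 CPM in fusion mice (log2 fold change -1.80, edgeR adjusted p 0.178), and mt-Rnr1 was 439, 751 and 755 CPM and 241, 191, 283 and 110 CPM. Mitochondrial genes as a whole did not follow them, at 16640 to 22820 CPM in control mice and 16800 to 44290 CPM in fusion mice. Kcnq1ot1, a long antisense RNA of an imprinted domain, was 8.82, 20.6 and 19.6 CPM in control mice and 5.29 to 6.30 CPM in fusion mice, and the non-coding locus Gm12940 was 8.21, 15.9 and 20.6 CPM and 4.23 to 5.26 CPM. For all 4 of these transcripts control mouse 1 was the control closest to the fusion mice. Slc25a25, a mitochondrial ATP-Mg carrier, was 190, 264 and 103 CPM in control mice and 54.2 to 68.5 CPM in fusion mice, Hmgcs1, of cholesterol synthesis, was 7.32 to 11.2 CPM and 3.11 to 5.14 CPM, and Hspa1a, a heat shock gene, was 6.14 to 20.9 CPM and 4.82 to 5.64 CPM. Tgtp1, an interferon-induced GTPase with a close paralog, and the mucin gene Muc19 had log2 fold changes of -1.64 and -1.32. None of these genes was called by edgeR in the comparison of 4 mice with 3, while DESeq2 called each of them. That none overlapped between the groups was required by the rule that picked them.

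The direction of the differences depended on the annotated class of the transcript. Among 15763 protein-coding genes, 939 (5.96%) were higher and 759 (4.82%) were lower at an unadjusted p under 0.05. Among 630 loci of the class TEC, mostly unspliced loci still to be tested by experiment, 1 was higher and 337 (53.5%) were lower, with a median log2 fold change of -1.33. Among 81 sense intronic transcripts 2 were higher and 47 (58.0%) were lower, and among 300 lincRNAs 11 were higher and 68 (22.7%) were lower. Processed pseudogenes went the other way, with 106 of 2578 (4.11%) higher and 20 (0.776%) lower and a median log2 fold change of 0.33. TEC loci together were 342, 428 and 474 CPM in control mice and 293, 262, 282 and 302 CPM in fusion mice, without overlap (2-sided exact permutation test, p 0.0571, the smallest that 4 against 3 mice allow). TEC loci and sense intronic transcripts lie largely inside introns or beside genes. Control mouse 1 again lay nearest to the fusion mice. When only nuclear protein-coding genes were kept, a setting chosen after the data were seen, 0 genes were called, with 981 higher and 853 lower at an unadjusted p under 0.05 and a smallest edgeR adjusted p of 0.0551, that of Gpnmb. Whether this shift between RNA classes bears on the differences of single genes was not tested.

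**Figure D5:**
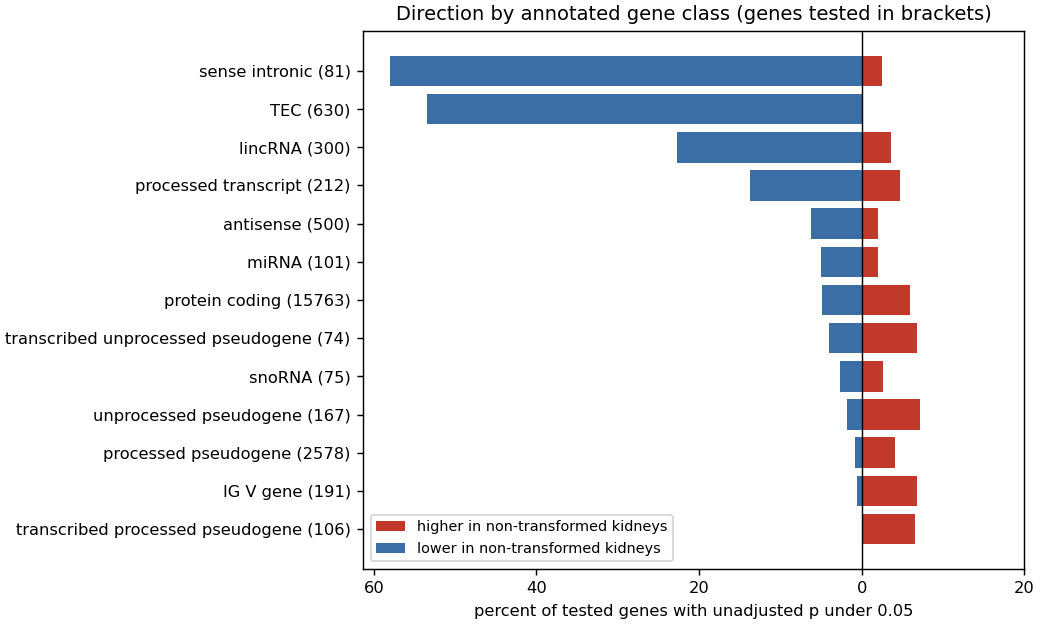
Percent of the tested genes of each annotated class at an unadjusted p under 0.05, higher (red, to the right) or lower (blue, to the left) in non-transformed kidneys, with the number of genes tested in brackets. TEC loci and sense intronic transcripts lie almost wholly on the lower side, and protein-coding genes are near balance.

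Markers of tissue beside the kidney differed from mouse to mouse. Adipose markers summed to 88.1 to 159 CPM in control mice and 793, 144, 410 and 173 CPM in fusion mice 1, 3, 4 and 5. Adipoq, the adiponectin gene that defines fat cells, was 1.31 to 3.69 CPM in control mice, 61.4 and 33.7 CPM in fusion mice 1 and 4 and at most 0.157 CPM in fusion mice 3 and 5. Urothelial markers summed to 2.34 to 9.62 CPM in control mice and 1.27, 2.19, 31.3 and 26.0 CPM in fusion mice, and Krt5, of basal urothelium, was 9.91 and 10.1 CPM in fusion mice 4 and 5 and at most 1.47 CPM elsewhere. Fat markers were thus highest in mice 1 and 4 and urothelial markers in mice 4 and 5, and neither marked all 4 fusion mice. Blood markers summed to 551 to 620 CPM in control mice and 954, 489, 914 and 1341 CPM in fusion mice. Hbb-bt, a beta-globin gene, was 29.3 to 35.2 CPM in control mice and 73.0, 37.1, 60.9 and 101 CPM in fusion mice. Of 11 adrenal markers 3 passed the filter, and their sum was at most 2.96 CPM in any mouse. The part of fat and urothelium in the differences between the groups was not tested.

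In 4 genes fusion mice 1, 3 and 4 lay above both the controls and fusion mouse 5. Cd1d2, which encodes an antigen-presenting molecule and is annotated as a polymorphic pseudogene (chromosome 3), was at most 0.0432 CPM in control mice and 0.603, 0.567, 0.777 and 0.0655 CPM in fusion mice 1, 3, 4 and 5. Hsd3b1 and Hsd3b2, neighbouring steroid dehydrogenase genes of a family with close copies (chromosome 3), were likewise lowest in mouse 5 among the fusion mice. Hsd3b2 was 58.4, 92.8 and 82.9 CPM in control mice and 360, 284, 281 and 126 CPM in fusion mice, and Hsd3b1 was 0.165 to 0.198 CPM and 1.62, 1.30, 1.16 and 0.262 CPM. Igkv4-70, an immunoglobulin light chain segment (chromosome 6), was 2.27 to 2.53 CPM in control mice and 8.71, 9.05, 11.9 and 2.23 CPM in fusion mice. Rps3a3 had its lowest fusion level in mouse 5 as well. These 4 genes were named because the comparison without fusion mouse 5 called them, so that their low level in that mouse is a description and not a test. The strain background of the mice was not given, and its part in these differences was not tested.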

How the data were processed

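RNA was extracted from paraffin-embedded tissue and made into stranded total RNA libraries without depletion of ribosomal RNA. The authors deposited a table of raw, unnormalised counts, with genes in rows and libraries in columns. Per the labels, FastQC, MultiQC, Bowtie2 and STAR 2.5.2a and the builds GRCm38 and mm10 were used; the counting tool and annotation are not given in the sources used here. In every library 79.0% to 84.3% of counts from 1 to 20 were even, so a halved table was also fitted. Of 53379 gene identifiers, 53274 matched GENCODE M21, ignoring the version, which gave symbols, classes and coordinates. Promoters came from a RefSeq table.

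Libraries of a mouse were summed and fitted with edgeR 4.0.16 in R 4.3.3 (filterByExpr, TMM, quasi-likelihood F-test), with Benjamini-Hochberg adjustment over all genes tested. Levels of genes and lists are TMM-normalised CPM of the 7 mice. Sums of Y-linked, TEC, mitochondrial and immunoglobulin genes are CPM of the total count without TMM. Percents of the tumor level, the tumor levels in the plot and the level of Diras2 use a joint TMM scaling of 21 libraries. SE is the absolute log2 fold change over the square root of F. DESeq2 1.42.0 and limma 3.58.1 were alternatives. Code was tested on simulated data. Genes named in the text were those of 32 lists, those called in any fit with at most 15 calls, and the 10 largest differences each way by the rule given with them; a few genes that met these rules are left out of the text. The members, lists and rules were chosen with earlier results of these data known. The paper supplied with the series describes other mice and was not used for the methods.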

Additional observations from a re-analysis of the deposited data

Results flagged for a closer look

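The 88 genes whose levels were examined over the 4 fusion mice are genes named in the text, many chosen for large differences in these data. The nominal rate of Dixon's test, 1 in 20 or 4.4 genes, therefore does not apply to them. In 9 of the 88 levels, 1 mouse lay far from the other 3 by that test, which is a description only. In mouse 3 these were Dct at 36.1 CPM (next mouse 0.505), Ptgds at 50.65 CPM (next 12.6) and Gfap, a glial gene, at 1.73 CPM (next 0.337). In mouse 4 they were Ccn2 at 61.5 CPM (next 45.0), Ifit1, an interferon-induced gene, at 12.4 CPM (next 6.50) and Slc25a25, which was the lowest, at 54.2 CPM (next 66.8). In mouse 5 they were Serpina1b at 75.6 CPM (next 14.4), Slco1a1 at 205.8 CPM (next 10.8) and Slc7a13 at 864.7 CPM (next 118). For Slco1a1 and Slc7a13 the next highest was the other male, mouse 1. Dct in mouse 3 was 36.1 CPM while Pmel was 8.14 CPM in that mouse and 7.33 CPM in mouse 4.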

How the results depend on the processing

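No paired analysis was possible because the 2 groups hold different mice and share no animal. The number of calls, 2 by edgeR, was 575 with DESeq2 (277 higher and 298 lower), 5 with limma-voom on libraries with mouse as a random block, 6 without a filter, 1 with the first and 1 with the second control library only, 5 with sex as a covariate, 7 in female mice, 1 with robust quasi-likelihood and 1 in a test against a 1.5-fold change. It was 0 to 10 when a mouse was left out, with 0 without any 1 control mouse, and 0 (981 higher and 853 lower at an unadjusted p under 0.05) when only nuclear protein-coding genes were kept, a setting chosen after the data were seen. It was 2 with RLE or upper quartile scaling, with halved counts and with a filter of 1 CPM in 3 mice, and 3 with kidney tumors in the fit. Gm3608 was called in 17 of 21 alternatives and Gpnmb in 13 of 22. The median percent of the tumor level in mice 1, 3, 4 and 5 was 0.494%, 1.41%, 2.22% and 6.74% with the 2 genes past stricter limits (10 and 0.2 CPM), and 1.08%, 4.36%, 2.40% and 1.07% against the mean of all kidney tumors. Directions turned for Slc7a13 with sex as a covariate (-0.42) and in females (-0.43), and for Slc5a2 with the first control library only (-0.22), with sex as a covariate (-0.26) and in females (-0.27). With a mouse left out the log2 fold change lay between -0.30 and 0.26 for Slc5a2, between -0.45 and 0.0111 for Rps3a1 and between -0.00869 and 0.144 for Aspscr1. The causes were not tested. With 4 against 3 mice, an exact permutation test cannot go below 0.0571.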

Other observations

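Of 20 interferon-response and antigen-presentation genes 19 had a log2 fold change below 0, 3 were lower at an unadjusted p under 0.05, against 6.31% of all genes, and none was called. Gbp2, an interferon-induced GTPase, was 18.1, 34.5 and 46.7 CPM in control mice and 13.9, 14.5, 26.5 and 16.9 CPM in fusion mice 1, 3, 4 and 5, so that control mouse 1 overlapped with the fusion mice. Of 24 genes of peroxisomes and fatty acid oxidation, 0 were higher and 3 were lower at that p, against 5.4% and 6.31% of all genes. Among them were Ppara, the nuclear receptor of fatty acid oxidation (63.3 to 90.9 CPM in control mice and 37.2 to 61.1 CPM in fusion mice), and Cpt1a, of mitochondrial fatty acid import (421 to 458 CPM and 325 to 420 CPM). Nuclear genes of oxidative phosphorylation had 0 of 18 members past that p in either direction.

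Of 20 genes of oxidative and amino acid stress none was called by edgeR. At an unadjusted p under 0.05, 3 were higher and 2 were lower, against 5.4% and 6.31% of all genes. Nqo1, a quinone reductase driven by NRF2, was 22.5, 15.7 and 20.6 CPM in control mice and 45.2, 27.0, 29.4 and 31.3 CPM in fusion mice. Osgin1, another oxidative stress gene, was 62.1, 74.2 and 55.5 CPM in control mice and 32.7, 36.8, 46.9 and 22.5 CPM in fusion mice, and Ddit3, of the unfolded protein response, was 9.39 to 13.1 CPM and 5.83 to 8.83 CPM. The groups did not overlap for these 3 genes and none was called by edgeR, while DESeq2 called Osgin1 only (adjusted p 0.0306). Immunoglobulin variable segments summed to 742 to 1462 CPM in control mice and 1588, 722, 4835 and 1186 CPM in fusion mice, with the highest sum in mouse 4 (2-sided exact permutation test, p 0.457). Of 10 brain markers 3 were higher and 0 lower at an unadjusted p under 0.05, against 5.4% and 6.31% of all genes. Of the 10, 8 had a log2 fold change above 0, and their sum was 11.2 to 14.01 CPM in control mice and 12.6 to 18.0 CPM in fusion mice. Of the 3, Gfap and Snap25 passed the filter on low counts through the fusion mice only, which fixed their direction, so that the count is a description only. Gfap was at most 0.0453 CPM in control mice. Snap25 was at most 0.0539 CPM in control mice and 0.045, 0.247, 0.152 and 0.864 CPM in fusion mice.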
